A study of Mus musculus with 44 samples.

Results

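The Tie receptors and the angiopoietins were followed in mammary fibroblasts sorted by CD26. The members were 8 genes of the 55486 genes in the count table. They were the receptor genes Tek (the angiopoietin receptor Tie2) and Tie1, the ligand genes Angpt1, Angpt2 and Angpt4, and the angiopoietin-like genes Angptl1, Angptl2 and Angptl4. The members were chosen by name, with earlier results on their read counts in these mice known, so fold changes and adjusted p-values over all genes are given here as a description of them.

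Angiopoietins are secreted ligands of Tie2. In vessels, Angpt1, which is made by mural and other mesenchymal cells, activates Tie2 on endothelial cells and keeps the vessel wall quiet, whereas Angpt2 acts mostly as an antagonist of Angpt1 and is released where vessels are remodelled. Tie1 has no well established ligand of its own and modulates Tie2. Angiopoietin-like proteins share the coiled-coil and fibrinogen-like parts of angiopoietins but do not bind Tie2, and Angptl4 is best known as an inhibitor of lipoprotein lipase that responds to hypoxia and to PPAR ligands.

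The recipients were En1-Cre;mTmG mice, in which GFP marks cells of the Engrailed1 lineage. They carried transplanted mammary tissue, and the recipient fat pad was left in place. Control mice (NFs) had received control tissue, which the study's text describes as WapCre-negative Cdh1F/F;PtenF/F tissue and the labels title wildtype, and which carries no tumor. WB1P donor tissue was WapCre;Brca1F/F;Trp53F/F, in which Cre is driven by a milk protein promoter in mammary epithelium, and WB1P-Myc tissue carried a Cre-activated Myc and luciferase transgene as well (Col1a1invCAG-Myc-IRES-Luc). Fibroblasts from these tumors are called CAFs. They were gated as EpCAM−/CD49f−/CD31−/CD45− cells, so that endothelial cells, which bear CD31 (Pecam1), were meant to be removed. Each mouse was split by CD26 and by GFP into En1+, double−, CD26+ and double+ cells, of which En1+ and double− are CD26−. The time after transplantation and the age at harvest were not in the labels.

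The table held 44 libraries of 13 mice, with 3 control, 5 WB1P and 5 WB1P-Myc mice. Each control label held a pair of numbers and was counted as 1 mouse, and 2 of the WB1P-Myc mice (mice 12 and 13) were marked 8x8. The study's text uses this size in mm for advanced tumors of these models, and describes the tumors of these recipients as end-stage. Whether the mark gives a tumor size is not in the labels. Libraries that shared a mouse and a CD26 class were added up, which gave 25 sums, 6 of them from 1 library. Different labels were taken as separate animals. Whether a control label stands for 2 pooled mice is not in the labels. For these sorted cells the study's text gives fewer WB1P-Myc mice than the labels name. For mouse 4 (WB1P) the table held 1 library, a CD26− one. Values are in CPM, the reads of a gene per 1000000 reads counted on genes, and libraries held 5790599 to 15240328 counts. The sort was visible in Dpp4, which encodes CD26. Dpp4 lay between 223 and 846 CPM in the CD26+ sums and between 0.619 and 17.6 CPM in the CD26− sums. A summed fibroblast list of 6 genes lay between 20769.5 and 52587.2 CPM in every sum. Fewer cells of a type and less RNA per cell cannot be told apart in such samples.

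Tek separated the CD26 classes in every mouse. In CD26+ NFs, Tek stood at 148, 469 and 308 CPM in control mice 1, 2 and 3. In CD26− NFs of the same mice it stood at 14.8, 24.7 and 17.4 CPM. The classes did not overlap, and CD26+ NFs were 10.0 to 19.0 times higher within a mouse.

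The same order was seen in both tumor models at lower levels. Tek in CD26+ CAFs was 93.3, 49.6, 123 and 132 CPM in WB1P mice 5 to 8 and 141, 102, 99.4, 93.1 and 77.7 CPM in WB1P-Myc mice 9 to 13. CD26− CAFs had 2.17, 4.34, 5.52, 7.07 and 3.92 CPM in WB1P mice 4 to 8 and 3.67, 4.81, 5.38, 5.58 and 5.32 CPM in WB1P-Myc mice 9 to 13. Tek was higher in CD26+ than in CD26− cells in 12 of 12 mice with both classes, with a median ratio of 18.1.

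Among the 6 groups, Tek was highest in CD26+ NFs, followed by CD26+ CAFs, CD26− NFs and CD26− CAFs. No mouse of one of these 4 levels reached into the next. The neighbouring WB1P and WB1P-Myc groups overlapped in both classes and did not differ beyond their spread.

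**Figure D1:**
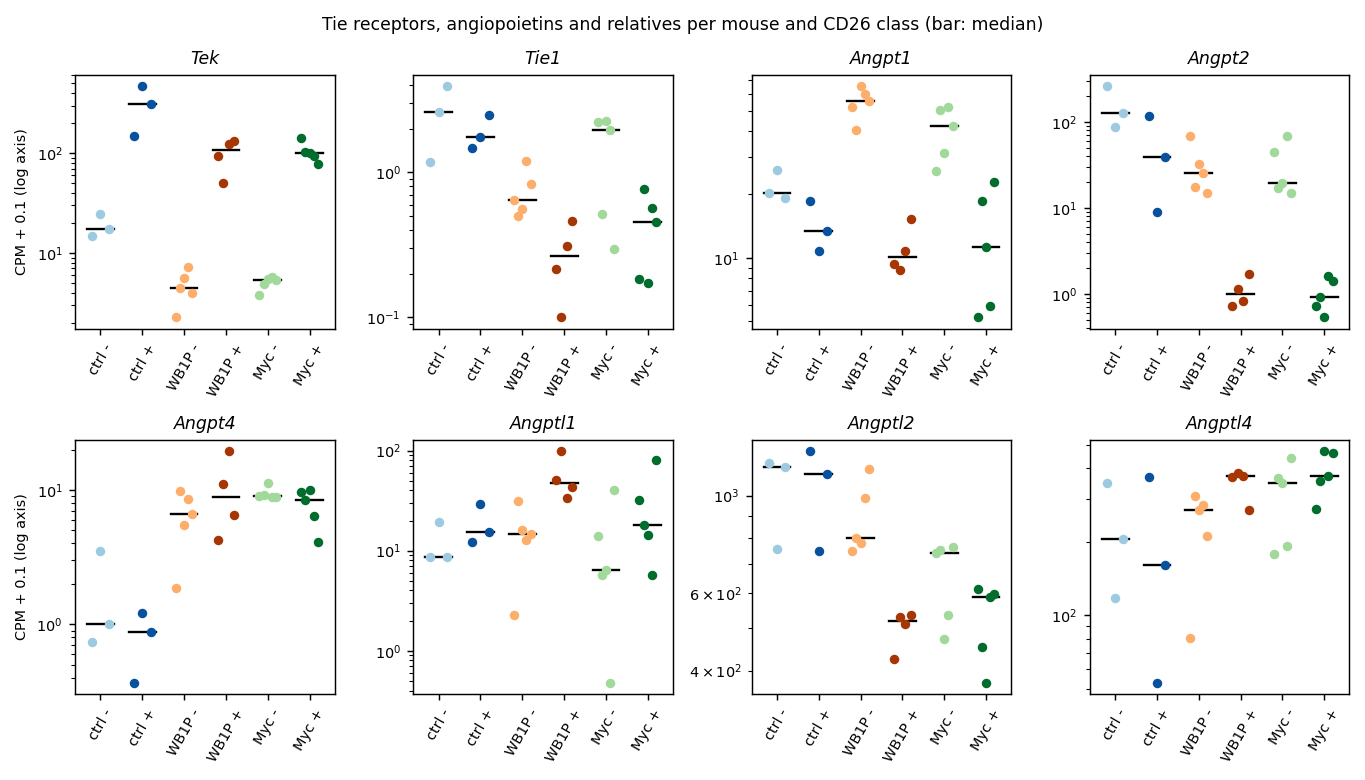
Levels in CPM plus 0.1 on a log axis for the 8 genes, 1 point per mouse and 1 column per tissue and CD26 class (− or +), with the median as a bar. Tek in the CD26+ columns lies between 49.6 and 469 CPM and in the CD26− columns between 2.17 and 24.7 CPM.

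A log2 fold change is given with its standard error (SE), and FDR is the p-value adjusted over all genes. In the fit over all genes, Tek was 16.9-fold higher in CD26+ than in CD26− NFs, with a log2 fold change of 4.08 (SE 0.43, FDR 2.89e-06). In that comparison 4.17% of all genes were called at an FDR under 0.05 (edgeR), and Tek was 1 of 8 members called. The log2 fold change was 4.54 in WB1P CAFs (SE 0.35, FDR 2.62e-08) and 4.54 in WB1P-Myc CAFs (SE 0.34, FDR 1.24e-08). There, 26.0% and 20.0% of all genes were called, and 4 of 8 members in each model. The CD26 difference of Tek in CAFs exceeded that in NFs by 0.46 on the log2 scale in WB1P mice (SE 0.49), which was within its error.

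Against NFs of the same CD26 class, Tek fell in CAFs of both models. In CD26− cells the log2 fold change was -1.89 in WB1P mice (SE 0.34, FDR 0.000203) and -1.93 in WB1P-Myc mice (SE 0.34, FDR 0.000204). In CD26+ cells it was -1.43 (SE 0.35, FDR 0.00394) and -1.47 (SE 0.33, FDR 0.00202). These comparisons share the control mice, so both models are set against the same 3 NF samples. The endothelial gene Pecam1 fell alongside Tek in CD26− CAFs, with log2 fold changes of -1.94 in WB1P (SE 0.49, FDR 0.0041) and -1.34 in WB1P-Myc mice (SE 0.49, FDR 0.0364), and Cdh5 fell in CD26− WB1P CAFs (-2.11, SE 0.68, FDR 0.0187). In CD26+ cells Cdh5 fell in both models, whereas Pecam1 was not called. Their part in the fall of Tek was not tested.

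The ratio of Tek to Dpp4 counts within a sum set CD26+ NFs apart from CD26+ CAFs. It was 0.555 to 0.578 in the 3 control mice, 0.222 to 0.315 in the 4 WB1P mice and 0.228 to 0.325 in the 5 WB1P-Myc mice. In CD26− cells the ratio was 2.65 to 8.21 in NFs and 0.306 to 3.50 in CAFs. Dpp4 itself was not called in CD26+ cells between CAFs and NFs, with log2 fold changes of -0.33 in WB1P mice (SE 0.60) and -0.36 in WB1P-Myc mice (SE 0.57). The ratio was chosen after the values were seen and was given no test.

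The 5 genes whose log2 CPM was most like that of Tek over the 25 sums were Gpr1, Sptbn5, Opcml, Il1rl2 and Zfp385a, with Pearson's r from 0.960 to 0.967 among 13230 genes. The sums of one mouse are not independent, and the sort by CD26 is shared by all of them.

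Tek lies on the forward strand of chromosome 4 (ENSMUSG00000006386, GRCm38, 94739289 to 94874976). The 250 bases before its RefSeq start are shown because Tek was the member that was called between the CD26 classes in all 3 tissues. The window is chr4:94739039-94739288 of GRCm38.p6, forward strand, with GGAA on either strand (TTCC when read on the forward strand), the core of the ETS factor motif, in capitals.
Tek: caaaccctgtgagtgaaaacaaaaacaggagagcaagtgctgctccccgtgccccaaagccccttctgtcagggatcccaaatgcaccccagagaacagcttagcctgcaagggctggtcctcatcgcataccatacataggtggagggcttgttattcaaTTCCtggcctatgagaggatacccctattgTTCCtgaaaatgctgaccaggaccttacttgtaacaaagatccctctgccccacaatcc
The window held 2 matches. Of all 32851 RefSeq promoter windows of this length, 93.4% held at least 1 match, and the median was 3, so the count in Tek is an ordinary one. RefSeq windows were at hand for 5 of the 8 members.

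Tie1, the other receptor gene (ENSMUSG00000033191, chromosome 4, 118471191 to 118490061, reverse strand), had 29 to 105 counts per sum in NFs. Only in CAFs, mainly CD26+ ones, did Tie1 come close to the detection limit. In CD26− NFs it stood at 1.09, 2.53 and 3.84 CPM in mice 1 to 3, and in CD26+ NFs at 1.38, 1.67 and 2.41 CPM. CD26− CAFs lay between 0.398 and 1.09 CPM in WB1P mice and between 0.197 and 2.17 CPM in WB1P-Myc mice. CD26+ CAFs lay between 0 and 0.362 CPM in WB1P mice and between 0.0728 and 0.668 CPM in WB1P-Myc mice. The CD26 classes overlapped in NFs and in WB1P-Myc CAFs, but not in WB1P CAFs.

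Behind these values were 0 to 11 counts per sum in CD26+ CAFs and 4 to 49 counts in CD26− CAFs. The single CD26+ sum at 0 counts (WB1P mouse 6, from 1 library) allows a level of up to 0.518 CPM at 3 counts, so its place below the others was not detectable at this depth. Limits of this kind cover counting error only.

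In WB1P-Myc mice Tie1 was lower in CD26+ than in CD26− CAFs, with a log2 fold change of -1.84 (SE 0.61, FDR 0.0356). The call was lost with mouse as a block (log2 fold change -1.60, FDR 0.0696) and without each of mice 9, 11 and 12. It was also lost without the filter on low counts, without the mice marked 8x8 and in a fit on only the groups compared. In WB1P mice the log2 fold change was -1.52 (SE 0.69, FDR 0.111). Against NFs, Tie1 fell in CD26+ CAFs of both models, with log2 fold changes of -2.95 (SE 0.73, FDR 0.00442) and -2.38 (SE 0.65, FDR 0.00821), and in CD26− WB1P CAFs, with -1.80 (SE 0.62, FDR 0.0273). The last call was lost without control mouse 2 or 3 or WB1P mouse 5. In CD26− WB1P-Myc CAFs the log2 fold change was -0.92 (SE 0.61, FDR 0.248). The endothelial gene Cdh5 fell in the same CD26+ comparisons, with log2 fold changes of -2.71 in WB1P (SE 0.76, FDR 0.0094) and -2.67 in WB1P-Myc mice (SE 0.70, FDR 0.00614), and 6 of 10 endothelial markers were lower in each model. In CD26− CAFs 2 of the 10 were higher and 5 lower in WB1P, and 2 and 2 in WB1P-Myc mice. Of all genes, 33.5% and 34.7% were called in the CD26+ and 35.4% and 36.6% in the CD26− comparisons. The part of the endothelial markers in the fall of Tie1 was not tested.

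Per kilobase of merged exons the Tek level was 65.5 ± 34.1 CPM in the 3 mice with CD26+ NFs (mean ± SD), whereas Tie1 stood at 0.370 ± 0.108 there. In CD26− WB1P CAFs the values per kilobase were 0.977 ± 0.389 for Tek and 0.131 ± 0.0569 for Tie1 (SD, n = 5). In CD26− NFs they were 4.03 ± 1.09 for Tek and 0.505 ± 0.280 for Tie1 (SD, n = 3). In CD26+ WB1P CAFs they were 21.1 ± 7.90 and 0.0351 ± 0.0312 (SD, n = 4). Tek thus exceeded Tie1 per length in both classes of NFs and of WB1P CAFs, and by far more in CD26+ cells.

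The endothelial genes Pecam1 (CD31) and Cdh5 (VE-cadherin) were measured in the same sums as markers of endothelial RNA. Pecam1 lay between 1.44 and 15.4 CPM and Cdh5 between 0 and 13.2 CPM over all 25 sums. The highest value of each was in CD26− NFs. In CD26+ CAFs, where Tek lay between 49.6 and 141 CPM, Cdh5 was at 0 to 1.74 CPM. Pecam1 was at 1.74 to 11.7 CPM there. The sum with 0 counts of Cdh5 (WB1P mouse 6, from 1 library) had the lowest Tek of these sums, 49.6 CPM, and the highest Pecam1 of all CAF sums, 11.7 CPM from 68 counts. Between the CD26 classes Pecam1 was not called, being higher in CD26+ cells in 3 of 4 WB1P and 2 of 5 WB1P-Myc mice, and Cdh5 was lower in WB1P-Myc CAFs (log2 fold change -2.07, SE 0.65, FDR 0.0256).

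Tek counts were 11.0 to 30.3 times the summed Pecam1 and Cdh5 counts in CD26+ NFs, 4.22 (mouse 6) to 38.1 times in WB1P CD26+ CAFs and 14.4 to 27.4 times in WB1P-Myc CD26+ CAFs. In the CD26− groups the ratio was 0.625 to 1.12 in NFs, 0.444 to 1.28 in WB1P and 0.234 to 2.00 in WB1P-Myc CAFs. Set against the mean log2 level of Pecam1 and Cdh5 (pseudocount 0.5 CPM), Tek was higher in CD26+ than in CD26− CAFs by 4.74 ± 1.01 on the log2 scale (SD, n = 9 mice). It was higher in 9 of 9 mice, which is a description without a test, since Tek was chosen with its counts in these mice known.

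The same measure for Tie1 was -0.32 ± 0.42 on the log2 scale (SD, n = 9 mice). It was lower in CD26+ CAFs in 7 of 9 mice, and its sign turned to 0.63 against the whole endothelial list. This too is a description without a test, since Tie1 was chosen in the same way as Tek. Tie1 counts were 0.0826 to 0.138 times the summed Pecam1 and Cdh5 counts in CD26− NFs and 0.103 to 0.132 times in CD26+ NFs. The gene most like Tie1 over the 25 sums was Cdh5, with Pearson's r of 0.952, followed by Zfp329 at 0.909.

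**Figure D2:**
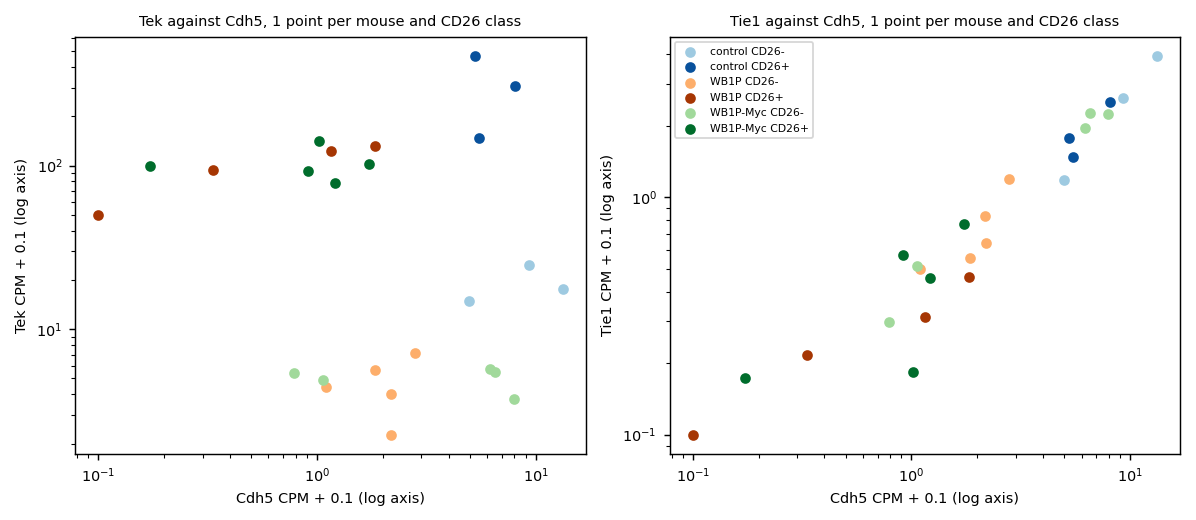
Tek (left) and Tie1 (right) against the endothelial gene Cdh5, all in CPM plus 0.1 on log axes, 1 point per mouse and CD26 class, coloured by group. Tie1 rises along with Cdh5 over all groups, whereas the CD26+ sums hold Tek at 49.6 CPM or more at every level of Cdh5, down to 0.

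Between the CD26 classes of NFs, WB1P CAFs and WB1P-Myc CAFs, 4.17%, 26.0% and 20.0% of all genes were called. Of the 10 endothelial markers, 0 were called between the CD26 classes of NFs, 4 were lower in CD26+ than CD26− cells in WB1P and 7 in WB1P-Myc CAFs, and none was higher. Their summed level was 28.4 to 63.0 CPM in NFs, 36.9 to 269 CPM in CD26− CAFs and 6.77 to 16.8 CPM in CD26+ CAFs. In CD26− CAFs much of the sum was Esam, an adhesion gene that mural cells can also express, at 16.9 to 183 CPM. Of the 4 lymphatic endothelial markers, Ccl21a was at 0 in every group.

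Of 32 relations between a member and the endothelial or the pericyte level across CAF mice, 2 passed at an adjusted p under 0.05. These p-values are a description, since the members were chosen with their counts in these mice known. The permutations were also not kept within a tumor model. In CD26− CAFs, Tie1 followed the Pecam1 and Cdh5 level, with Pearson's r of 0.901 (n = 10 mice, permutation test, adjusted p = 0.0301) and Spearman's rho of 0.867 (permutation test, adjusted p = 0.0704). Without the 2 mice farthest from the median level, r was 0.818. It was 0.560 within WB1P mice and 0.918 within WB1P-Myc mice. In the same mice Tek had an r of 0.0819 (n = 10 mice, permutation test, adjusted p = 0.912) and a rho of 0.248 (permutation test, adjusted p = 0.825), with an r of 0.217 without the 2 farthest mice, 0.330 within WB1P and -0.263 within WB1P-Myc mice. The contrast between both genes was not seen in CD26+ CAFs (n = 9 mice). There r was 0.0138 for Tie1 and 0.211 for Tek. With a pseudocount of 0.1 CPM these were 0.498 and 0.560, and none of these relations passed.

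In CD26+ CAFs, Angptl2 followed the Pecam1 and Cdh5 level, with an r of 0.813 (n = 9 mice, exact permutation test, adjusted p = 0.0429) and a rho of 0.767 (exact permutation test, adjusted p = 0.219). The r was 0.684 without the 2 farthest mice, 0.681 within WB1P mice and 0.839 within WB1P-Myc mice. With a pseudocount of 0.1 CPM the relation did not pass (r 0.737, n = 9 mice, exact permutation test, adjusted p = 0.348), and r within WB1P mice was 0.157. Neither the relation of Tie1 nor that of Angptl2 passed by Spearman's rho.

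Angpt1, the activating ligand (ENSMUSG00000022309, chromosome 15, 42424723 to 42676977, reverse strand), was higher in CD26− CAFs than in any other group. It stood at 52.1, 40.5, 65.2, 59.7 and 55.4 CPM in WB1P mice 4 to 8 and at 25.7, 50.1, 31.5, 51.6 and 41.9 CPM in WB1P-Myc mice 9 to 13. CD26+ CAFs held 9.25, 8.63, 10.7 and 15.1 CPM in WB1P mice 5 to 8 and 5.12, 18.5, 11.2, 5.79 and 22.7 CPM in WB1P-Myc mice 9 to 13. The classes did not overlap in either model, and Angpt1 was lower in CD26+ cells in 12 of 12 mice with both classes.

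NFs held less Angpt1 in their CD26− cells. Control mice 1 to 3 had 20.2, 26.1 and 19.1 CPM in CD26− cells and 18.6, 10.6 and 13.3 CPM in CD26+ cells. The highest CD26− NF value overlapped the lowest WB1P-Myc CAF value and lay below all WB1P CAF values. Among CD26+ groups, NFs and CAFs overlapped.

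In CD26+ against CD26− cells the log2 fold change of Angpt1 was -2.19 in WB1P CAFs (SE 0.35, FDR 8.09e-05), -1.55 in WB1P-Myc CAFs (SE 0.32, FDR 0.00103) and -0.54 in NFs (SE 0.40, FDR 0.669). In CD26− cells Angpt1 rose in WB1P CAFs against NFs, with a log2 fold change of 1.45 (SE 0.37, FDR 0.0045). It was 0.89 in WB1P-Myc CAFs (SE 0.36, FDR 0.0596), which was not called. Angpt1 was 1 of 5 members called in CD26− WB1P CAFs against NFs, where 35.4% of all genes were called. In CD26− WB1P-Myc CAFs 4 of 8 members and 36.6% of all genes were called.

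Angpt2, the antagonist (ENSMUSG00000031465, chromosome 8, 18690263 to 18741562, reverse strand), was most abundant in NFs. It stood at 261, 86.3 and 127 CPM in CD26− NFs of mice 1 to 3 and at 117, 8.85 and 39.6 CPM in their CD26+ cells. The classes overlapped across mice, but Angpt2 was lower in CD26+ cells in 3 of 3 mice. The log2 fold change was -1.43 (SE 0.72, FDR 0.386), and with mouse as a block it was -1.93 (SE 0.42, FDR 0.00908).

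In CAFs the gap between the classes was wide. CD26− CAFs held 68.2, 17.7, 32.3, 25.6 and 14.9 CPM of Angpt2 in WB1P mice 4 to 8 and 44.4, 16.9, 19.6, 68.8 and 14.8 CPM in WB1P-Myc mice 9 to 13. CD26+ CAFs held 0.622, 1.04, 0.742 and 1.59 CPM in WB1P mice 5 to 8 and 0.625, 0.816, 0.437, 1.54 and 1.34 CPM in WB1P-Myc mice 9 to 13. All CD26+ CAF values lay below every CD26− CAF value and every NF value. The counts behind the CD26+ CAF values were 6 to 44 per sum.

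Angpt2 was 29.1-fold lower in CD26+ than in CD26− cells of WB1P CAFs, with a log2 fold change of -4.86 (SE 0.77, FDR 7.34e-05). In WB1P-Myc CAFs it was 29.9-fold lower (-4.90, SE 0.69, FDR 2.18e-05). Against NFs it fell in CD26− CAFs with log2 fold changes of -2.22 in WB1P (SE 0.62, FDR 0.00813) and -2.28 in WB1P-Myc mice (SE 0.62, FDR 0.00694). For CD26+ CAFs these were -5.65 (SE 0.82, FDR 4e-05) and -5.75 (SE 0.74, FDR 1.25e-05). In CD26+ CAFs against NFs, 33.5% of all genes in WB1P and 34.7% in WB1P-Myc mice were called, and 5 of 8 members in each.

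The CD26 difference of Angpt2 in CAFs minus that in NFs was -3.44 in WB1P (SE 1.02, FDR 0.0927) and -3.47 in WB1P-Myc mice (SE 0.98, FDR 0.0929) on the log2 scale, which missed the threshold. With mouse as a block these values were -2.34 (SE 0.63, FDR 0.0491) and -2.87 (SE 0.60, FDR 0.0208). Without the block, 0 of 8 members were called in these 2 tests of a difference between CAFs and NFs, in which 1.86% and 1.16% of all genes passed and 2233 and 1611 genes had an unadjusted p under 0.05. By DESeq2's Wald test 2 members were called for WB1P and 1 for WB1P-Myc.

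The balance of the ligands followed from both. The ratio of Angpt2 to Angpt1 counts was 3.30 to 12.9 in CD26− NFs and 0.832 to 6.26 in CD26+ NFs. It was 0.268 to 1.73 in CD26− CAFs and 0.0390 to 0.267 in CD26+ CAFs. Within each CD26 class no CAF value reached the lowest NF value. The ratio was chosen after the values were seen and was given no test.

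**Figure D3:**
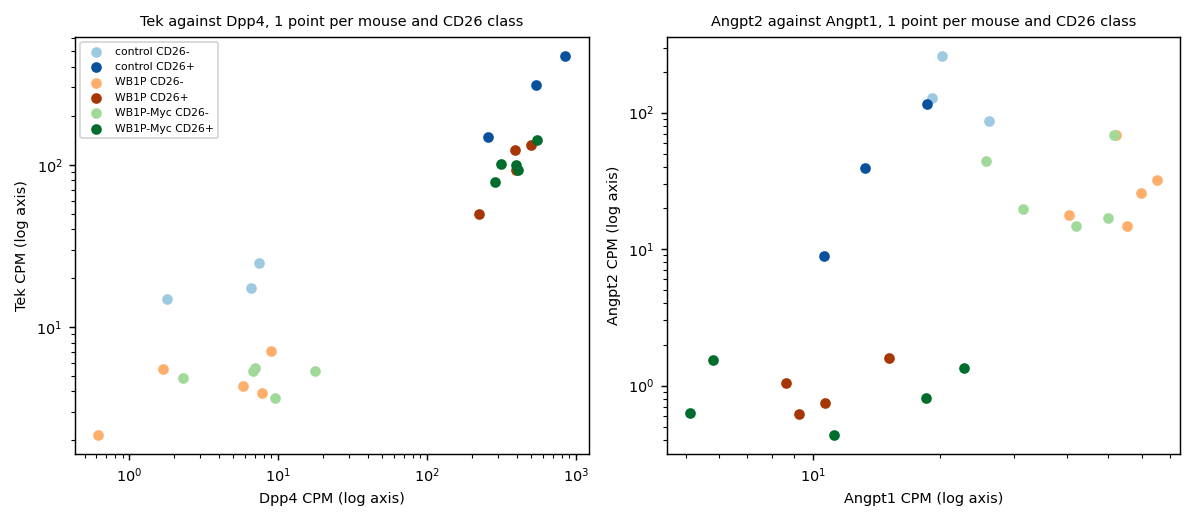
Tek against Dpp4 (left) and Angpt2 against Angpt1 (right) in CPM on log axes, 1 point per mouse and CD26 class, coloured by group. The 3 CD26+ NF sums lie above the CD26+ CAF sums at like Dpp4, and the CD26+ CAF sums form a group of their own at 0.437 to 1.59 CPM of Angpt2.

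Pericyte markers differed between the same groups as Angpt1 and Angpt2, but not always in the same direction. Against CD26− NFs, 9 of the 9 pericyte genes rose in CD26− CAFs of both models, where 35.4% and 36.6% of all genes were called. Angpt1 went up beside them (log2 fold changes 1.45 and 0.89, the second not called), whereas Angpt2 fell in both comparisons (-2.22 and -2.28). Of all genes, 26.0% and 20.0% were called in CD26+ against CD26− CAFs of WB1P and WB1P-Myc mice. There 6 of 9 and 8 of 9 pericyte genes were lower, as were Angpt1 (log2 fold changes -2.19 and -1.55) and Angpt2 (-4.86 and -4.90). The summed level of the pericyte markers was 226 to 419 CPM in NFs without CD26 and 167 to 201 CPM in those with it. In CAFs it was 1877 to 10859.8 CPM in CD26− and 201 to 391 CPM in CD26+ cells. Rgs5, a defining pericyte gene, lay between 565 and 4791 CPM in CD26− CAFs and between 1.24 and 10.9 CPM in CD26+ CAFs. Not every gene of the list had such a gap. In WB1P CAFs the median of Kcnj8 was 34.1 CPM in CD26− and 34.9 CPM in CD26+ cells. That of Ndufa4l2 was 79.0 and 58.9 CPM. The part of the pericyte markers in the levels of Angpt1 and Angpt2 was not tested. Correlations across mice are given as a description.

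Across the 10 mice with CD26− CAFs, neither ligand followed the pericyte level past the adjusted threshold. Angpt1 had an r of -0.647 (n = 10 mice, permutation test, p = 0.0425, adjusted p = 0.334) and a rho of -0.382 (permutation test, adjusted p = 0.621). Its r was -0.457 without the 2 farthest mice, 0.078 within WB1P and -0.836 within WB1P-Myc mice. Angpt2 had an r of 0.535 (n = 10 mice, permutation test, adjusted p = 0.334) and a rho of 0.442 (permutation test, adjusted p = 0.551), with an r of 0.215 without the 2 farthest mice, 0.689 within WB1P and 0.538 within WB1P-Myc mice.

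The genes most like Angpt1 over the 25 sums were Lmo7, Col23a1, Cdh11, Enho and Dll1, with Pearson's r from 0.906 to 0.928. Those most like Angpt2 were Tmem47, Itpr1, Map2, Serpini1 and Sdk2, with r from 0.935 to 0.960.

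Angpt4, a further ligand of Tie2 (ENSMUSG00000027460, chromosome 2, 151911210 to 151945337, forward strand), was scarce in NFs. It stood at 0.637, 3.44 and 0.915 CPM in CD26− NFs and at 0.269, 1.11 and 0.780 CPM in CD26+ NFs of mice 1 to 3. CD26− CAFs held 1.78, 9.76, 5.37, 8.52 and 6.49 CPM in WB1P mice 4 to 8 and 8.70 to 11.1 CPM in WB1P-Myc mice. CD26+ CAFs had 4.16, 11.1, 19.3 and 6.37 CPM in WB1P mice 5 to 8 and 4.01 to 9.98 CPM in WB1P-Myc mice. CD26+ CAFs lay above all CD26+ NFs, whereas in CD26− cells WB1P mouse 4, with a single library, lay within the range of NFs.

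Angpt4 was the member that rose against NFs in all 4 comparisons. The log2 fold change was 3.96 (SE 0.65, FDR 0.000147) in WB1P and 3.51 (SE 0.63, FDR 0.00034) in WB1P-Myc CD26+ CAFs. In CD26− CAFs it was 2.11 (SE 0.57, FDR 0.00654) and 2.47 (SE 0.58, FDR 0.00238). The WB1P CD26− call was lost without control mouse 3 (FDR 0.0544). Angpt4 was not called between the CD26 classes of any tissue.

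Angptl2 is a secreted factor that many stromal cells make (ENSMUSG00000004105, chromosome 2, 33216069 to 33247717, forward strand). By group mean it had the highest level per kilobase of the 8 genes in NFs and in CD26− CAFs. In CD26+ CAFs the mean of Angptl4 was higher, at 98.5 ± 15.2 CPM per kilobase in the 4 WB1P sums and 109 ± 23.2 in the 5 WB1P-Myc sums (mean ± SD). Single mice departed from this order. Angptl2 was the higher of both in CD26+ CAFs of mice 8 and 9, and Angptl4 in CD26− CAFs of mice 11 and 13. For Angptl2, values per mouse follow. CD26− NFs held 1184, 754 and 1159 CPM and CD26+ NFs 1261, 747 and 1118 CPM in mice 1 to 3, so that each mouse had nearly the same level in both classes. CD26− CAFs held 749 to 1152 CPM in WB1P and 472 to 764 CPM in WB1P-Myc mice. CD26+ CAFs held 425 to 535 CPM in WB1P and 375 to 612 CPM in WB1P-Myc mice, all below the lowest NF value of 747 CPM.

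In CD26+ cells Angptl2 fell against NFs, with log2 fold changes of -0.90 in WB1P (SE 0.23, FDR 0.00602) and -0.90 in WB1P-Myc CAFs (SE 0.22, FDR 0.00395). In CD26− WB1P-Myc CAFs it was -0.68 (SE 0.22, FDR 0.0209), a call that was lost without control mouse 1 or 3, without the mice marked 8x8 and in a fit on only the groups compared. It was 1.65-fold lower in CD26+ than in CD26− WB1P CAFs (log2 fold change -0.72, SE 0.21, FDR 0.0134), a call lost without WB1P mouse 7. The CD26 difference in WB1P CAFs minus that in NFs was called with mouse as a block (-0.85, SE 0.22, FDR 0.045) and not without it (-0.81, SE 0.33, FDR 0.252). Per kilobase the level of Angptl2 was 166 ± 42.2 CPM in the 3 CD26+ NF sums (mean ± SD), against 79.5 ± 8.11 CPM in the 4 sums of CD26+ WB1P CAFs.

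Angptl1 (ENSMUSG00000033544, chromosome 1, 156838562 to 156861078, forward strand) varied widely between mice. It lay between 8.49 and 29.3 CPM in NFs, between 0.380 and 40.0 CPM in CD26− CAFs and between 5.66 and 98.3 CPM in CD26+ CAFs. CD26− WB1P CAFs held 31.0, 16.0, 12.8 and 14.4 CPM in mice 5 to 8, and CD26+ CAFs of these mice 50.8, 98.3, 33.5 and 43.6 CPM. WB1P-Myc mice 9 to 13 had 14.1, 5.64, 6.35, 0.380 and 40.0 CPM in CD26− and 32.3, 18.2, 14.2, 5.66 and 80.6 CPM in CD26+ CAFs. Within mice Angptl1 was ordered, being higher in CD26+ than in CD26− cells in 12 of 12 mice, by 1.40 to 14.9 times. In the fit of all 6 groups without a block it was not called, with log2 fold changes between the classes of 1.95 in WB1P (SE 0.81, FDR 0.0783) and 1.37 in WB1P-Myc mice (SE 0.77, FDR 0.232). With mouse as a block these became 1.68 (SE 0.31, FDR 0.000997) and 1.73 (SE 0.29, FDR 0.000566), and both were called. The WB1P difference was called in 4 fits without a block as well, those without the mice marked 8x8, without mouse 12, without mouse 13 and on only the groups compared. Against NFs, CD26+ WB1P CAFs had a log2 fold change of 1.76 (SE 0.95, FDR 0.156), which was called without the mice marked 8x8 and on only the groups compared. In NFs the blocked log2 fold change was 0.71 (SE 0.35, FDR 0.242).

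Angptl4 (ENSMUSG00000002289, chromosome 17, 33773750 to 33781830, reverse strand) was not called in the fit without a block. It stood at 350, 117 and 206 CPM in CD26− NFs and at 369, 52.9 and 160 CPM in CD26+ NFs of mice 1 to 3. In CD26− CAFs it lay between 80.3 and 440 CPM and in CD26+ CAFs between 269 and 470 CPM. All NF and CAF ranges overlapped. In 4 of 4 WB1P and 4 of 5 WB1P-Myc mice, the CD26+ CAFs held more Angptl4 than their CD26− counterparts. With mouse as a block the log2 fold change was 0.58 in WB1P-Myc CAFs (SE 0.18, FDR 0.0265), which was called, against 0.51 without it (SE 0.41, FDR 0.443). The widest contrast was that of CD26+ WB1P-Myc CAFs against NFs, with a log2 fold change of 1.04 (SE 0.50, FDR 0.105). Without control mouse 1, the highest of the NFs, it was 1.98 and was called (FDR 0.00698).

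**Figure D4:**
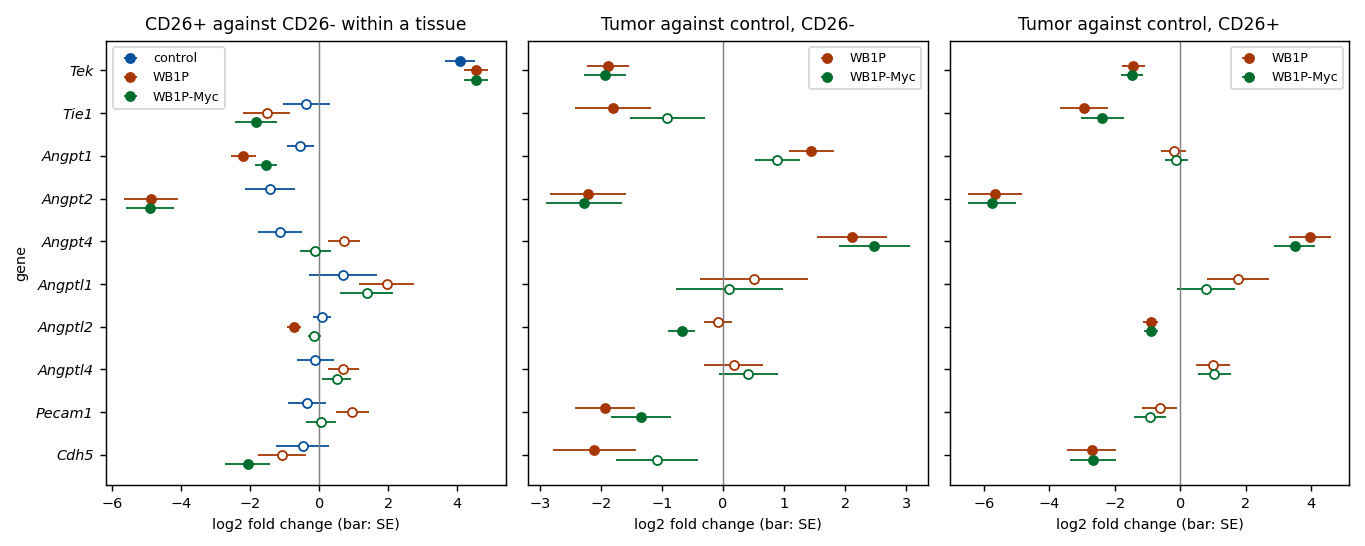
Log2 fold changes of the 8 genes and of Pecam1 and Cdh5 with their SE, between CD26 classes within a tissue (left) and between tumor and control in CD26− (middle) and CD26+ cells (right). Filled points have an FDR under 0.05 (edgeR, over 16601 genes). Tek lies at 4.08 to 4.54 on the left, and Angpt2 at -5.65 and -5.75 on the right.

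No member was called between the tumor models. Between WB1P-Myc and WB1P CAFs, 0 of 8 members were called in CD26− cells, where 0.512% of all genes passed (edgeR) and 2405 genes had an unadjusted p under 0.05. In CD26+ cells 0 of 8 members and 0% of all genes passed (edgeR), beside 646 genes with an unadjusted p below 0.05. DESeq2's Wald test called 421 and 9 genes in these comparisons.

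No member was called between the En1 lineage classes. Between En1+ and double− CAFs 0% of genes were called (edgeR), against 641 genes whose unadjusted p was under 0.05, and 8 genes by DESeq2. Between double+ and CD26+ CAFs 0.0193% were called, and 0.00642% in both En1 comparisons of NFs. None of the 8 members was among them, and with mouse as a block, where 11, 3, 25 and 3 genes of the whole table were called, again 0 of 8 members were. In single libraries Tek was 3.67 to 7.79 CPM in double− and 2.17 to 6.41 CPM in En1+ CAFs, and 49.6 to 131 CPM in double+ and 72.9 to 155 CPM in CD26+ CAFs. The order by CD26 thus held within each lineage class. Over NFs and CAFs together, Angptl4 was higher in double+ than in CD26+ libraries in 9 of 9 mice, by a median of 1.09 times. This was picked as the most even difference among the 8 members in both CD26 classes. Its log2 fold change was 0.15 in CAFs (SE 0.36) and 0.27 in NFs (SE 0.55), and neither was called.

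Of the 16 genes that act with the Tie receptors inside or at the cell, 0 were called between the CD26 classes of NFs, 5 were lower in CD26+ WB1P CAFs and 3 in CD26+ WB1P-Myc CAFs, and none was higher. These counts are near the background, since 26.0% and 20.0% of all genes were called in the CAF comparisons. The median log2 fold changes were -0.09, -0.30 and -0.17, beside -0.02, 0.01 and -0.01 for all genes. Ptprb, the phosphatase VE-PTP that dephosphorylates Tie2, was among the lower ones, at 11.3 to 20.4 CPM in CD26− and 1.04 to 3.74 CPM in CD26+ WB1P CAFs. Its log2 fold change was -2.80 (SE 0.44, FDR 6.16e-05) in WB1P and -2.45 (SE 0.40, FDR 0.000107) in WB1P-Myc CAFs. Grb14, an adaptor that binds Tie2, was lower in CD26+ CAFs of both models too (-1.37, FDR 0.0426 and -1.61, FDR 0.0117).

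Against NFs, 4 of these 16 genes were higher and 2 lower in CD26− WB1P CAFs, and 2 and 2 in CD26− WB1P-Myc CAFs. In CD26+ cells 2 were higher and 4 lower in WB1P, and 4 and 4 in WB1P-Myc CAFs, where 33.5% to 36.6% of all genes were called. Foxo1, the transcription factor that Tie2 signalling through Akt restrains, fell in all 4 comparisons, with 48.5 to 112 CPM in NFs and 20.1 to 34.1 CPM in CAFs. The log2 fold change was -1.43 (SE 0.20, FDR 2.45e-05) in CD26+ WB1P CAFs. Nos3, the endothelial nitric oxide synthase, fell in all 4 as well, but from at most 1.68 CPM.

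The VEGF family, the other large set of vessel receptors and ligands, had 10 tested genes. In CD26+ against CD26− cells 1 was higher and 1 lower in NFs, 2 and 5 in WB1P and 2 and 4 in WB1P-Myc CAFs. Against NFs 5 were higher and 1 lower in CD26− WB1P CAFs and 4 and 1 in CD26− WB1P-Myc CAFs, with median log2 fold changes of 0.71 and 0.22 beside 0.00 and 0.02 for all genes. In CD26+ cells 2 were higher in WB1P and 1 in WB1P-Myc CAFs, and none was lower. Of all genes, 4.17%, 26.0% and 20.0% were called between the CD26 classes of NFs, WB1P and WB1P-Myc CAFs, and 33.5% to 36.6% against NFs.

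Flt1, the VEGF receptor 1 gene, stood at 34.0 to 356 CPM in CD26− CAFs, 1.25 to 5.96 CPM in CD26+ CAFs and 4.56 to 11.0 CPM in NFs. Vegfd, a ligand of VEGF receptors on lymphatic vessels, was higher in CD26+ CAFs, as Tek was, at 149 to 301 CPM in CD26+ against 2.71 to 65.4 CPM in CD26− cells. Its log2 fold change was 3.54 (SE 0.49, FDR 1.72e-05) in WB1P and 2.46 (SE 0.46, FDR 0.000427) in WB1P-Myc CAFs. Pgf, placental growth factor, rose in CD26− CAFs to 23.5 to 150 CPM, from at most 1.74 CPM in NFs of that class.

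Of 14 genes that respond to hypoxia or PPAR ligands, as Angptl4 does, 8 were higher and 2 lower in CD26− WB1P CAFs than in NFs, and 6 and 1 in CD26− WB1P-Myc CAFs. In CD26+ CAFs 9 were higher and 2 lower in each model, with median log2 fold changes of 1.46 and 1.23 beside 0.00 and -0.01 for all genes. Egln3, a prolyl hydroxylase of the HIF pathway, was at most 1.35 CPM in NFs and 7.53 to 67.1 CPM in CD26− CAFs. Between the CD26 classes, 0 were called in NFs, and 2 were higher and 1 lower in the CAFs of each model. The share of all genes called was 33.5% to 36.6% against NFs. Between the classes it was 4.17% in NFs, 26.0% in WB1P and 20.0% in WB1P-Myc CAFs. Angptl4 was not called against NFs with all mice in the fit.

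Of the 5 lipase genes, 4 were tested. Lpl, the lipoprotein lipase that Angptl4 inhibits, fell in CAFs of both classes and models, from 1515 to 2719 CPM in NFs to 163 to 1181 CPM in CAFs. Its log2 fold change was -2.53 (SE 0.38, FDR 2.69e-05) in CD26− WB1P CAFs. Of the 4 other angiopoietin-like genes 3 were tested, and Angptl8 was higher in CD26+ than in CD26− CAFs of both models (1.17, FDR 0.0400 and 1.31, FDR 0.0168 on the log2 scale).

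Summed epithelial, immune, adipocyte and Schwann markers lay in every group below the 1877 to 10859.8 CPM of pericyte markers in CD26− CAFs. The highest epithelial and immune sums were above the highest Tek value of CAFs, 141 CPM. The summed level of 6 epithelial markers was 0.357 to 174 CPM, of 6 immune markers 12.2 to 233 CPM, of 4 adipocyte markers at most 11.8 CPM and of 3 Schwann markers at most 49.0 CPM. Of the 4 adipocyte markers, 2 were lower in CD26+ than in CD26− cells in each tissue, and no adipocyte marker was higher. Of the 6 immune markers, 1 was higher in CD26+ than in CD26− CAFs of each model. Of the 3 Schwann markers, 2 were lower in CD26+ than in CD26− WB1P-Myc CAFs. No epithelial marker was called between the CD26 classes. Of all genes, 4.17% in NFs, 26.0% in WB1P and 20.0% in WB1P-Myc CAFs were called there. The part of epithelial, immune, adipocyte and Schwann cells in the levels of the 8 genes was not tested.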

How the data were processed

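Stranded mRNA libraries of sorted fibroblasts were sequenced as paired ends. The authors deposited counts of reads per gene without normalization, made with HISAT2 2.2.1 and GRCm38 per the submitters' processing notes. The counter and the annotation are not given in the sources used here. The table has 1 line that names no gene, with 0 counts. Of 55140 gene identifiers found in GENCODE M21, 54783 have the same coordinates. Merged exons of that release gave lengths.

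Counts were summed per mouse and CD26 class. Genes were filtered with filterByExpr, scaled by TMM and tested with edgeR 4.0.16 (R 4.3.3, glmQLFit, glmQLFTest) over 6 groups of sums (16601 genes) and, for En1, 12 groups of single libraries (15584 genes), with Benjamini-Hochberg adjustment (FDR) and calls under 0.05. DESeq2 1.42.0 was an alternative. Marker comparisons used log2(CPM + 0.5), and their correlations used permutations (100000 for 10 mice). Likeness used log2 CPM with a prior count of 2 for genes with a mean of at least 1 CPM. Python 3.11.15 and scipy 1.17.1 were used. The fits were tested on simulated counts.

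The members, the gene lists and the tests were chosen with earlier results of these data known. Genes named follow a fixed rule: all members, Pecam1, Cdh5 and Dpp4, up to 4 called genes per pathway list by size of change, and 5 most alike genes per member. Rgs5, Esam and the 2 count ratios were chosen after values were seen. Values of members that were not called are printed as fold changes mainly where they reach 1 on the log2 scale.

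The labels give the mouse, so both sums of a mouse form a pair. Over genes, the residuals of the paired sums had correlations of 0.237 to 0.668, with a median of 0.444, in 12 mice. Of 63 pairs of libraries of one group, 0 were identical. Depth was 5790599 to 15240328 counts per library. No sequencing batch is named in the labels, so none could be tested. No library was left out.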

Additional observations from a re-analysis of the deposited data

Results flagged for a closer look

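In 32 groups of 4 or 5 mice, 2 held a value far from the others, where chance alone gives about 1.6. Angpt4 in CD26− WB1P-Myc CAFs was 11.1 CPM in mouse 11, whereas the other 4 mice lay between 8.70 and 9.04 CPM. This sum came from 1 library. Angptl4 in CD26+ WB1P CAFs was 269 CPM in mouse 8, below the other 3 mice at 370 to 384 CPM.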

How the results depend on the processing

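Of 28 calls of single members, 23 held under every alternative run, and among 815 refits 0 reversed, 16 lost and 16 gained a call. Those lost touched Tie1, Angpt4 and Angptl2. Those refits cover calls and log2 fold changes of at least 1. Those gained touched Angpt2 and Angptl1 (1 to 5 settings per comparison), Angptl4 and, in the test of a difference between WB1P CAFs and NFs, Angpt1. With mouse as a replicate block, 2 members were called between the CD26 classes of NFs (Tek and Angpt2) and not 1, and 2 and 1 in the tests of a difference from WB1P (Angpt2 and Angptl2) and WB1P-Myc CAFs (Angpt2). DESeq2's Wald test gave 2 and 1 there, and a fit on only the groups compared gave 1 for WB1P. The block also raised the calls over all genes in NFs from 692 to 1916, and the other values it changed stand beside the results. Without 1 mouse at a time, the members called in WB1P against control, CD26−, numbered 3 to 5.

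The Tie1 level relative to the endothelial level was -0.73 with a pseudocount of 0.1 CPM. It was 0.63 against the whole endothelial list, where it reversed, and -0.42 to -0.24 without 1 mouse at a time. These values are a description without a test. The cause of these changes was not tested. Of the 2 correlations that passed, 1 did with a pseudocount of 0.1 CPM, that of Tie1.

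Counts of calls over all genes differed from the main fit by more than 1.5 times in some fits. By CD26 they were 692 in NFs against 202 with only the groups compared, and 3326 in WB1P-Myc CAFs against 2016 without the mice marked 8x8 and 5346 with the block. CD26+ WB1P CAFs against NFs gave 5566 against 2834 with only the groups compared. Between the models, CD26− cells gave 85 against 421 by Wald test, 54 without the filter, 50 without the mice marked 8x8 and 6 with only the groups compared. CD26+ cells gave 0 against 9 by Wald test. The differences of the CD26 difference gave 309 in WB1P against 654 by Wald test and 851 with the block, and 193 in WB1P-Myc against 409, 125 without the mice marked 8x8, 107 with only the groups compared and 523 with the block. In En1+ against double− cells, CAFs gave 0 against 8 by Wald test and NFs 1 against 6. Tie1, with at most 105 counts per sum, is the member most limited by depth, and 3 control mice limit every comparison with NFs.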
